A study of Mus musculus with 18 samples.

Results

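The proteasome genes of the mouse heart were followed across hearts stressed with isoproterenol (ISO) and hearts that also received polystyrene (PS) particles. Members were all genes whose name starts with Psma, Psmb, Psmc, Psmd, Psme, Psmf or Psmg and a number, copies with the suffix -ps left out, and listed in both count tables of the study. The rule found 51 of the 35560 genes that the tables share, and 50 of them had enough counts to be tested. Psmb11, a subunit of thymic epithelium, was the exception, with 7 counts over all libraries. The names cover 8 alpha and 7 constitutive beta subunits of the 20S core, 4 inducible or tissue-specific beta subunits, 6 ATPases and 11 other subunits of the 19S cap, 6 activators and inhibitors and 7 assembly chaperones. The remaining 2 carry such a name only: Psmc3ip acts in meiotic recombination, and Psme3ip1 is a binding partner of the activator Psme3.

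All 18 mice were wild-type C57BL/6 males that received ISO, a beta-adrenergic agonist, under the skin at 2.5 mg/kg/day for 21 days. The ISO group had water by gavage, and the other groups had PS at 50 mg/kg/day by the same route for those 21 days, as particles of either 100 nm or 1 µm, with 6 libraries in each group. No mice without ISO and none with PS alone were among the samples, so every difference below is between ISO-stressed hearts. RNA of whole heart was sequenced by 2 providers: batch 1 held 3 ISO, 5 100 nm PS and 4 1 µm PS libraries, and batch 2 held 3, 1 and 2. Each group has mice numbered 1 to 6 in the labels, with 1 library for each number.

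The proteasome is the protease that degrades most short-lived and damaged proteins of a cell once they carry a chain of ubiquitin. Its 20S core is a barrel of stacked rings: the outer alpha rings gate the entry, and the inner beta rings hold the catalytic sites. The 19S cap binds the ubiquitin chain, removes it, and uses its ring of ATPases to unfold the substrate and feed it into the core. In heart muscle it turns over sarcomere proteins and damaged proteins, and interferon replaces its catalytic subunits by inducible counterparts that form the immunoproteasome.

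Total counts ran from 14032257 to 22600570 per library, of which 43276 to 94852 fell on the members. Levels are given as scaled counts per 1e6 (CPM, with TMM scaling), and a log2 fold change (with its standard error, SE) comes from 1 edgeR fit to all 18 libraries, with terms for group and batch. A gene passed at a Benjamini-Hochberg adjusted p under 0.05 over the 14623 genes tested. The libraries had the profile of heart muscle, with 6070 to 54600 CPM of the myosin gene Myh6, and none of the 8 cardiac myocyte markers was at 0. ISO libraries differed among themselves. ISO replicate 2 had 13152 genes detected (16562 to 17913 in the rest of its group), and ISO replicate 1 had 44.7% mitochondrial counts. Of the 50 tested members, 27 had their highest value of all 18 libraries in ISO replicate 2, and 22 had their lowest in ISO replicate 1. After removing batch means, the median SD of a member's log2 CPM was 0.514 among ISO libraries, 0.146 with 100 nm PS and 0.15 with 1 µm PS. Over all genes tested it was 0.621, 0.227 and 0.267. The fit used 1 estimate of spread per gene for all groups. SE and p against ISO can therefore be too small where ISO libraries spread more than PS libraries.

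RNA of proteasome genes was lower in PS hearts where it differed, and no member rose. With 100 nm PS, 10 of 50 members were lower and none was higher, against a background of 5.69% of all genes tested called lower and 3.88% called higher. With 1 µm PS, 7 of 50 were lower and none was higher, against 4.5% and 2.89%. With both sizes averaged, 16 of 50 were lower and none was higher, against 10.9% and 6.8%. The fold change was negative for 45 members with 100 nm PS and for 44 with 1 µm PS. The members' median log2 fold change was -0.40 with 100 nm PS and -0.35 with 1 µm PS, against -0.02 and -0.002 over all genes tested. Both comparisons use the same 6 ISO libraries, so they are not independent of each other.

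No member was separated from ISO over all libraries: in neither PS group did the highest value of any member lie below the lowest ISO value, a separation that 0.745% of all genes showed with 100 nm PS and 0.424% with 1 µm PS. Within batches the picture differed. Psma1 and Psmc6 lay below every ISO library of the same batch in all 12 PS libraries, which 1.27% of all genes did. With 100 nm PS alone, 5 members did so (Psma1, Psmc6, Psmd6, Psmd12 and Psme4, against 3.65% of all genes), but batch 2 held only 1 library of that group, and with 1 µm PS 2 members did (Psma1 and Psmc6, against 1.91%). The members' median log2 fold change had the same sign in each batch fitted alone, at -0.46 and -0.36 with 100 nm PS and at -0.40 and -0.35 with 1 µm PS, for batch 1 and batch 2. A batch by group term passed for 0 members and for 0.0821% of all genes (12 genes). In heart tissue, fewer cells of a type and less RNA per cell cannot be told apart.

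**Figure D1:**
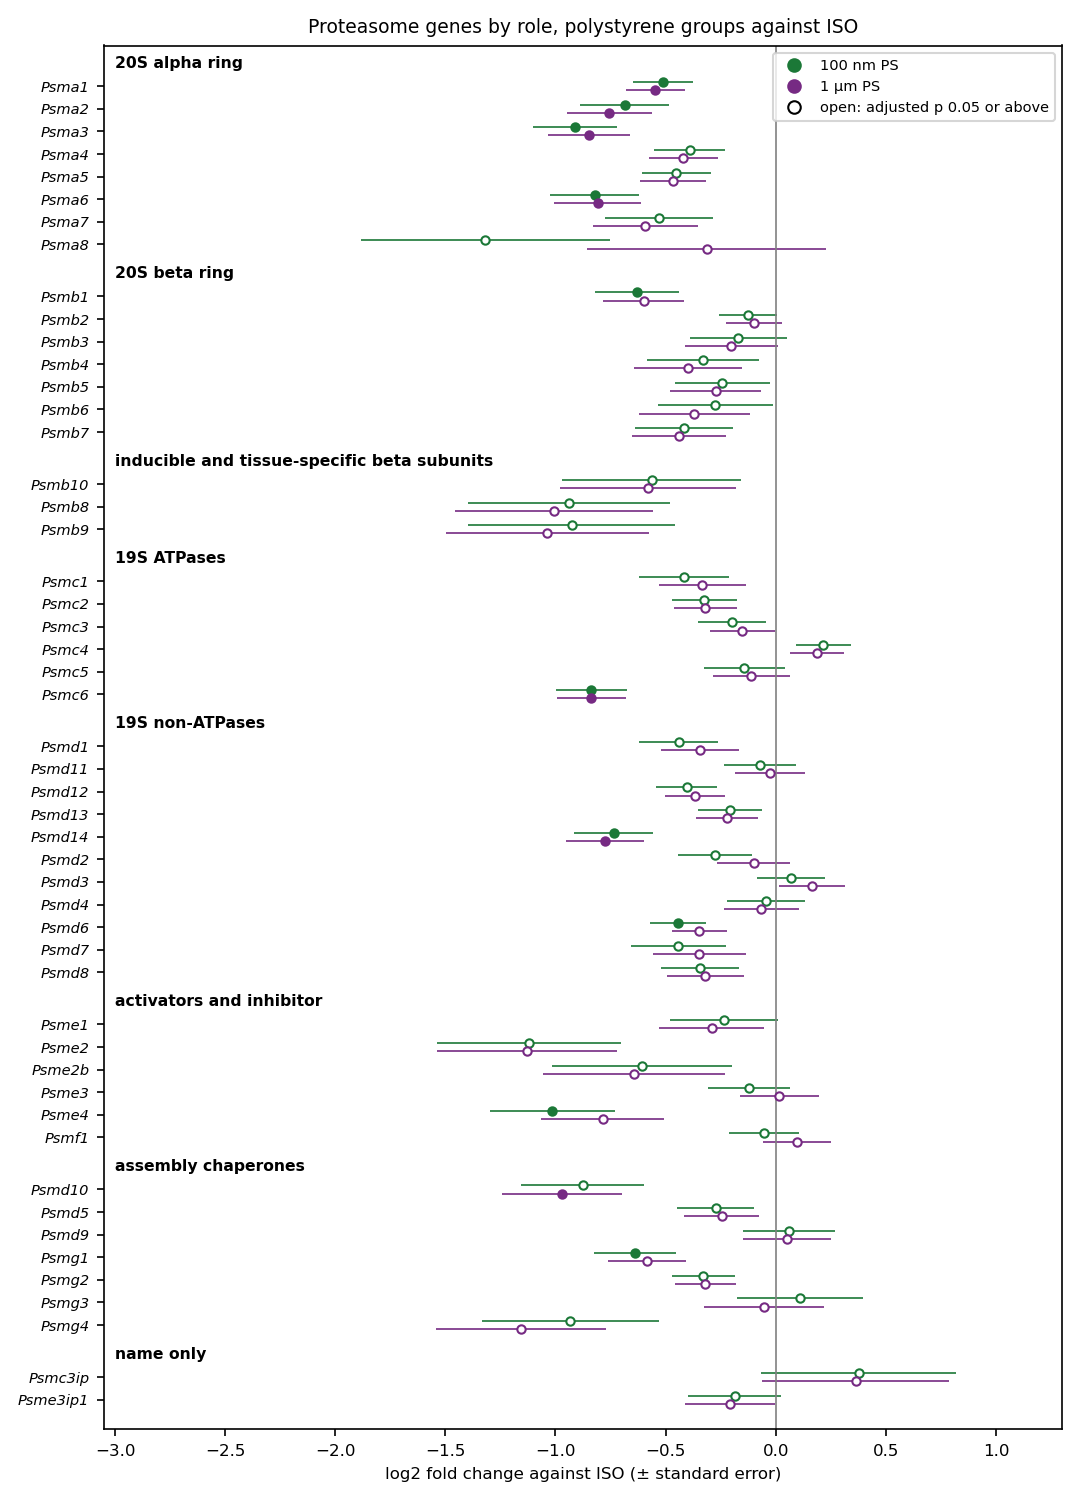
Log2 fold change against ISO (x axis, bars are ± 1 SE from the edgeR fit, 6 libraries per group) of the 50 tested members, grouped by role, for 100 nm PS (green) and 1 µm PS (purple). Filled points passed at an adjusted p under 0.05, which were 10 members at 100 nm and 7 at 1 µm, all of them left of 0.

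The alpha ring, which builds the gate of the core, held the largest share of lower genes. Of its 8 genes, 4 were lower with 100 nm PS, the same 4 with 1 µm PS and 6 with both sizes averaged, and all 8 had a negative fold change (median -0.61 and -0.57). Psma1, Psma2, Psma3, Psma4 and Psma8 have a GC content below 46%, as has Psmb7 alone in the constitutive beta ring. Of all members below 46% GC, 46.2% were lower at each size, against 10.8% and 2.7% of the others. The part of GC content in the share of the alpha ring was not tested. Psma3 ranged from 54.6 to 146 CPM in ISO hearts (median 76.3), from 40.6 to 56.9 CPM with 100 nm PS (median 49.3) and from 37.7 to 59.5 CPM with 1 µm PS (median 52.1). Its PS libraries overlapped with ISO only through ISO replicate 3, which had the lowest ISO value. The log2 fold change was -0.91 (SE 0.19, adjusted p = 0.0135) with 100 nm PS and -0.85 (SE 0.19, adjusted p = 0.0178) with 1 µm PS.

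Psma6, the most abundant alpha subunit per length (135 CPM per kb of transcript), ranged from 118 to 337 CPM in ISO (median 179), from 102 to 126 CPM with 100 nm PS (median 111) and from 101 to 119 CPM with 1 µm PS (median 116). The PS libraries sat within a narrow band at the low end of a wide ISO range, and ISO replicate 3 lay among them. The fold changes were -0.82 (SE 0.20, adjusted p = 0.0214) and -0.81 (SE 0.20, adjusted p = 0.0244). Psma2 ranged from 72 to 158 CPM in ISO (median 98.5), from 61.5 to 81.9 CPM with 100 nm PS (median 66.6) and from 51.6 to 74.9 CPM with 1 µm PS (median 65.6). It was lower by -0.69 (SE 0.20, adjusted p = 0.0402) and -0.76 (SE 0.19, adjusted p = 0.0291).

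Psma1 had 85 to 147 CPM in ISO (median 104), 69.8 to 97.4 CPM with 100 nm PS (median 80.4) and 67.5 to 85.9 CPM with 1 µm PS (median 77.3). Its ranges overlapped over all libraries and were apart within each batch. The fold changes were -0.51 (SE 0.14, adjusted p = 0.0301) and -0.55 (SE 0.13, adjusted p = 0.0244). Psma5 had 43.2 to 103 CPM in ISO (median 76.1), 38.5 to 61.5 CPM with 100 nm PS (median 44.5) and 42 to 62.2 CPM with 1 µm PS (median 47.2). It passed with both sizes averaged only (-0.46, SE 0.13, adjusted p = 0.0234), as did Psma4 (-0.40, SE 0.14, adjusted p = 0.0488). Without ISO replicate 2 the averages were -0.35 for Psma5 and -0.26 for Psma4, and neither passed; Psma4 had 136 CPM in that library and missed the threshold in 15 of the 18 fits that left out 1 library. Psma7, with -0.53 and -0.59, did not pass. Psma8, the testis form that takes the place of Psma7 in the germ line, had 0.0935 to 2.39 CPM in any library and did not pass.

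**Figure D2:**
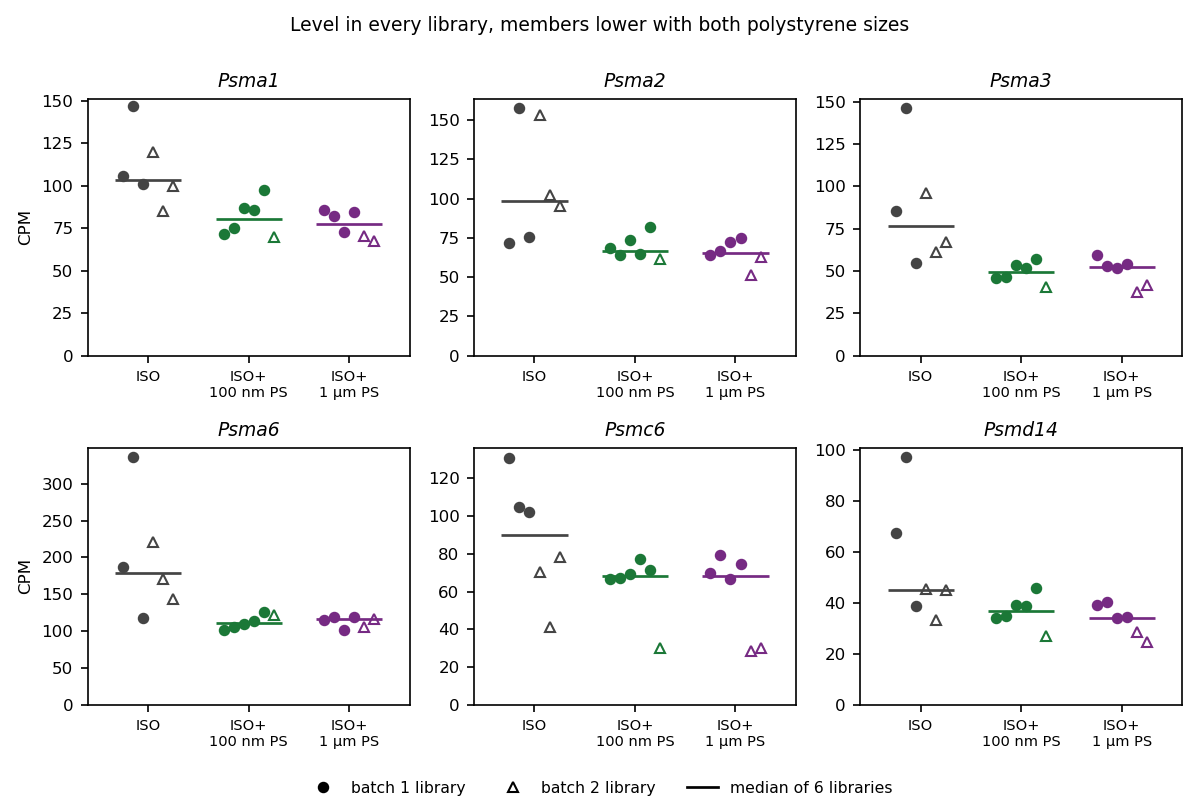
CPM (y axis, from 0) in each of the 18 libraries of the 6 members that were lower with both particle sizes, by group, with batch 1 libraries as filled circles, batch 2 libraries as open triangles and the median of 6 libraries as a line. PS libraries lie close together, for Psma6 between 101 and 126 CPM, while ISO libraries spread from 118 to 337 CPM.

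The constitutive beta ring held fewer calls. Of its 7 genes, 1 was lower with 100 nm PS, 0 with 1 µm PS and 1 with both sizes averaged, with negative fold changes for all 7 (median -0.27 and -0.37). Fitted alone, batch 1 gave medians of -0.07 and -0.14 and batch 2, with 1 library of 100 nm PS, -0.63 and -0.67. In batch 1 alone the sign was positive for Psmb3 with 100 nm PS (0.06) and for Psmb2, Psmb3 and Psmb5 with 1 µm PS (0.03, 0.05 and 0.02). The gene was Psmb1, a structural beta subunit: 119 to 249 CPM in ISO (median 155), 104 to 122 CPM with 100 nm PS (median 116) and 94.3 to 132 CPM with 1 µm PS (median 116). ISO and PS ranges met only at the low end of ISO. Its fold change was -0.63 (SE 0.19, adjusted p = 0.045) with 100 nm PS and -0.60 (SE 0.18, adjusted p = 0.0527) with 1 µm PS.

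The 3 constitutive catalytic subunits did not pass in any comparison of the fit as reported. Psmb5, the chymotrypsin-like site, had 78 to 231 CPM in ISO (median 168), 103 to 136 CPM with 100 nm PS (median 117) and 105 to 136 CPM with 1 µm PS (median 121). Psmb6, the caspase-like site, had 73.3 to 270 CPM in ISO (median 173), 122 to 159 CPM with 100 nm PS (median 138) and 118 to 149 CPM with 1 µm PS (median 129). Psmb7, the trypsin-like site, had 83.4 to 275 CPM in ISO (median 213), 132 to 165 CPM with 100 nm PS (median 150) and 133 to 165 CPM with 1 µm PS (median 143). In each of the 3 the PS range lay inside the ISO range, with ISO replicate 1 below all PS libraries. ISO replicate 3 was also below them for Psmb5 (90 CPM) and Psmb6 (106 CPM). The fold changes ran from -0.24 (Psmb5, 100 nm) to -0.44 (Psmb7, 1 µm), with SE from 0.21 to 0.26 and adjusted p from 0.192 to 0.51 at either size. With both sizes averaged, Psmb5 passed after correction for GC content (-0.79, from -0.26). Psmb7 passed without ISO replicates 1 and 2, at -0.55 with 1 µm PS and -0.54 with both sizes averaged. Per length, Psmb6 (154 CPM per kb), Psmb5 (148) and the structural subunit Psmb4 (147) had the highest mean levels of all members.

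The inducible counterparts of these subunits, which form the immunoproteasome after interferon, depended on 1 library. ISO replicate 2 had 211 CPM of Psmb8, where the rest of its group had 13.8 to 42.1 CPM and the PS libraries 16.4 to 43.6 CPM. Psmb9 stood at 114 CPM there, compared with 6.14 to 21.7 CPM in the remaining ISO libraries, 12.2 to 24.5 CPM with 100 nm PS and 7.05 to 24.9 CPM with 1 µm PS. Psmb10 stood at 313 CPM, compared with 23.1 to 77.6, 60.4 to 87.6 and 52.5 to 87.8 CPM. For all 3 genes the other ISO libraries and the PS libraries overlapped, and ISO replicate 2 stood above every one of them.

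The fold changes of Psmb8, Psmb9 and Psmb10 were -0.94, -0.93 and -0.56 with 100 nm PS and -1.01, -1.04 and -0.58 with 1 µm PS, with SE from 0.40 to 0.47, and none passed (adjusted p from 0.157 to 0.373). Without ISO replicate 2 the signs turned: the values became 0.25, 0.24 and 0.44 with 100 nm PS and 0.06, 0.03 and 0.34 with 1 µm PS. After correction for GC content all 3 passed with both sizes averaged (-1.33, -1.43 and -1.17), in a fit that kept ISO replicate 2. The same library had 795 CPM of the interferon-induced GTPase Igtp (16.9 to 24.6 CPM in the remaining ISO libraries) and 162 CPM of the peptide transporter Tap1 (13.7 to 31.3). Gbp2, another interferon-induced GTPase, was not raised there (39.2 CPM, against 26.9 to 42.9). The summed level of 10 leukocyte markers was 953 CPM in that library and 292 to 473 CPM in the other ISO libraries, 346 to 534 CPM with 100 nm PS and 336 to 525 CPM with 1 µm PS. Of that sum, Lyz2 held 371 CPM and C1qa 297 CPM. The leukocyte marker Ptprc was not raised there (8.34 CPM, against 3.17 to 21.5 in the other ISO libraries). The B cell marker Cd79a (0 to 1.55 CPM) was at 0 in ISO replicate 2 only. The T cell marker Cd3e (0 to 0.545 CPM, too low to be tested) was at 0 in that library and in some others. The part of such cells in the immunoproteasome values was not tested.

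**Figure D3:**
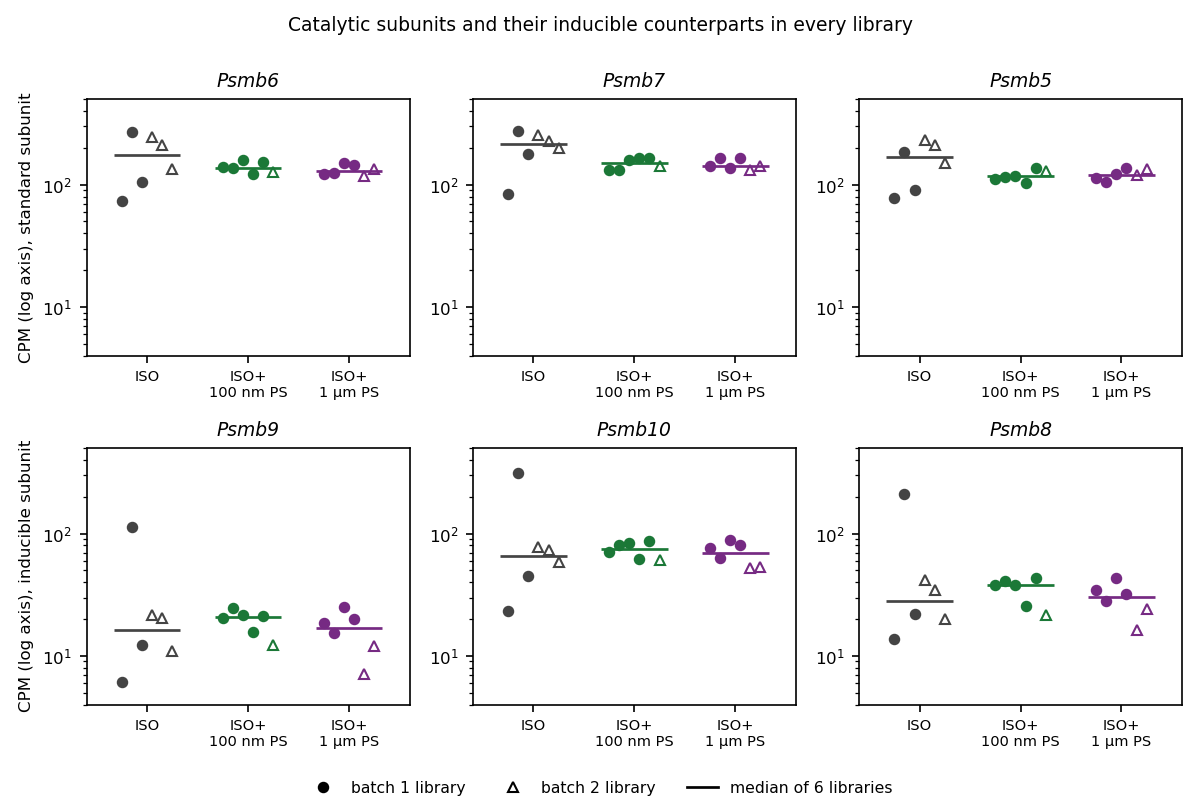
CPM (y axis, log scale) in each of the 18 libraries of the constitutive catalytic subunits (upper row) and their inducible counterparts (lower row), by group, with batch 1 as filled circles, batch 2 as open triangles and the median of 6 libraries as a line. ISO replicate 2 stands above all other libraries for Psmb8 (211 CPM), Psmb9 (114 CPM) and Psmb10 (313 CPM).

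Among the 6 ATPases of the 19S cap, which form the ring that unfolds substrates, Psmc6 alone passed, and it had the smallest p of all members. In batch 1 its ISO libraries had 131, 105 and 102 CPM, against 66.6, 67.2, 69.1, 77.1 and 71.6 CPM with 100 nm PS and 70, 79.3, 66.7 and 74.7 CPM with 1 µm PS. In batch 2 its ISO libraries had 70.4, 41.3 and 78.2 CPM, against 30 CPM with 100 nm PS and 28.3 and 30.1 CPM with 1 µm PS. Within each batch every PS library was below every ISO library, and the batches were apart by -1.09 (log2, batch 2 against batch 1). The fold change was -0.84 with 100 nm PS (SE 0.16, adjusted p = 0.0113) and -0.84 with 1 µm PS (SE 0.16, adjusted p = 0.012), and Psmc6 passed with each of the 18 libraries left out in turn, at both sizes. Psmc6 has a GC content of 37%, and with each library corrected for GC content its fold changes were -0.58 and -0.46, and neither passed. Without the batch term they were -0.47 and -0.60 and did not pass either. Psmc4, another ATPase of the same ring, had values of opposite sign (0.22 and 0.19) and did not pass.

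The promoter of Psmc6 is shown because the gene had the smallest p, and that of Psmb5 as a catalytic subunit that did not pass; both windows carry the same core element. The element is TGACNNNGC, the core of the antioxidant-response element through which Nfe2l1 (a transcription factor that raises proteasome genes when proteasome activity falls) is known to act. It was searched on both strands in the 250 bases before the start in RefSeq (GRCm38.p6), which has an entry for 43 of the 51 members. Capitals mark this element and, in Psmc6, also CCGGAAG, a core of ETS factor sites. The windows are chr14:45329574-45329823 on the plus strand for Psmc6 and chr14:54617996-54618245 on the minus strand for Psmb5, written 5′ to 3′ on the strand of the gene.
Psmc6: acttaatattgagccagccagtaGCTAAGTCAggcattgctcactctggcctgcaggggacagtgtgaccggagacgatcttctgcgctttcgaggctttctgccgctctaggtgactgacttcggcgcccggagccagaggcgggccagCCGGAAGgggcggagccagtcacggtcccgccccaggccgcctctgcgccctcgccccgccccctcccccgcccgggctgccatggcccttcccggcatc
Psmb5: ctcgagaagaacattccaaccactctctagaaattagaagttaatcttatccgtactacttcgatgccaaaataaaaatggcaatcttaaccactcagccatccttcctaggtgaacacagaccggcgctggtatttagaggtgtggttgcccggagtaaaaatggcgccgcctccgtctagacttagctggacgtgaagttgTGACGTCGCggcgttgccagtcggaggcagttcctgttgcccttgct
The matches with up to 10 bases on each side are given for all 5 members that hold the element, the capitals in Psmc6 and Psmd12 being its reverse complement.
Psmb5: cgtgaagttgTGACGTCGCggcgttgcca
Psmb6: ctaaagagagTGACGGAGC
Psmc6: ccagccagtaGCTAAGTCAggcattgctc
Psmd9: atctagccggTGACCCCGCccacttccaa
Psmd12: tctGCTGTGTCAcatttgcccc
These 5 are 11.6% of the members with an entry, and 11.5% of all 27025 genes with an entry hold the element. CCGGAAG, which does not overlap with the element in these windows, was in 13 members (30.2%) and in 7.8% of all genes. A match is a description of the sequence and no evidence of binding. Of the 5 genes with the first element, Psmc6 was lower at both sizes, Psmd12 with both sizes averaged, and Psmb5, Psmb6 and Psmd9 did not pass. Nfe2l1 itself had 165 to 452 CPM in ISO and 226 to 586 CPM in PS libraries, and its fold changes of 0.04 and 0.24 did not pass.

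Of the 11 other subunits of the 19S cap, 2 were lower with 100 nm PS, 1 with 1 µm PS and 3 with both sizes averaged. Fitted alone, batch 1 gave medians of -0.51 and -0.43 and batch 2, with 1 library of 100 nm PS, -0.13 and -0.12. Psmd1, Psmd2, Psmd3 and Psmd11 were negative in batch 1 and positive in batch 2 at both sizes. Psmd14, the deubiquitinase that cuts the ubiquitin chain off the substrate, had 33.1 to 97.3 CPM in ISO (median 45.2), 27.1 to 45.7 CPM with 100 nm PS (median 36.9) and 24.5 to 40.4 CPM with 1 µm PS (median 34.2). ISO replicates 1 and 2 were above all PS libraries, and the other 4 ISO libraries overlapped with them. Its fold changes were -0.74 (SE 0.18, adjusted p = 0.0214) and -0.78 (SE 0.18, adjusted p = 0.0197). Psmd6, a scaffold subunit of the lid, had 58.1 to 90 CPM in ISO (median 69.4), 51.3 to 62.6 CPM with 100 nm PS (median 56.5) and 49 to 66.5 CPM with 1 µm PS (median 58.9), with a small overlap. It was lower by -0.45 (SE 0.13, adjusted p = 0.0368) with 100 nm PS and had -0.35 (SE 0.12, adjusted p = 0.0843) with 1 µm PS. Psmd12, also of the lid, passed with both sizes averaged (-0.39, SE 0.12, adjusted p = 0.0315) and missed the threshold in 6 of the 18 fits that left out 1 library. The ubiquitin receptor Psmd4 had -0.05 and -0.07, and Psmd3, another subunit of the lid, had 0.07 and 0.17, and neither passed.

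The activators and inhibitors bind the ends of the core in place of the 19S cap. For these 6 genes, batch 1 fitted alone gave medians of -0.53 and -0.56. Batch 2, with 1 library of 100 nm PS, gave -0.13 and 0.005. Psme4, a large nuclear activator known from histone degradation, had 170 to 587 CPM in ISO (median 240), 113 to 200 CPM with 100 nm PS (median 137) and 110 to 266 CPM with 1 µm PS (median 163). ISO replicate 1 held the value of 587 CPM. Of the other ISO libraries (up to 323 CPM), only replicate 5 (170 CPM) lay within the range of 100 nm PS. Replicates 2, 4, 5 and 6 lay within that of 1 µm PS. The 100 nm PS library of batch 2 also had 170 CPM when rounded, so its separation from ISO within that batch was slight. Psme4 was lower with 100 nm PS (-1.02, SE 0.28, adjusted p = 0.0337) and had -0.79 (SE 0.28, adjusted p = 0.0825) with 1 µm PS. With 1 µm PS the batches differed in size, at -1.36 in batch 1 and 0.002 in batch 2. Without ISO replicate 1 the value was -0.64 with 100 nm PS and -0.55 with both sizes averaged, and neither passed.

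Psme1 and Psme2 together form the activator that interferon induces. Psme2 passed with both sizes averaged (-1.13, SE 0.34, adjusted p = 0.0313), and ISO replicate 2 had 215 CPM where the remaining ISO libraries had 17.4 to 119 CPM; without that library it had -0.11 with 100 nm PS, -0.22 with 1 µm PS and -0.16 with both sizes averaged, and did not pass. Its retrocopy Psme2b differed between batches by -5.44 (log2), from 12.4 to 88.4 CPM in batch 1 and from 0.155 to 1 CPM in batch 2, and both genes are uncertain, since counting could split reads between the near-identical pair. Psme1 (-0.23 and -0.29), the nuclear activator Psme3 (-0.12 and 0.02) and the inhibitor Psmf1 (-0.05 and 0.10) did not pass.

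Assembly chaperones, which guide the building of the core and of the ATPase ring, were low throughout, at 3 to 19 CPM per kb. Of the 7, 1 was lower with 100 nm PS, 1 with 1 µm PS and 3 with both sizes averaged. Psmg1, which pairs alpha subunits into the ring, had 16.9 to 37.4 CPM in ISO (median 26.7), 15.1 to 19.5 CPM with 100 nm PS (median 16.5) and 14.4 to 19.6 CPM with 1 µm PS (median 17.7). ISO replicates 3 and 6 lay among the PS libraries and the other 4 above them. It was lower by -0.64 (SE 0.18, adjusted p = 0.0379) with 100 nm PS and had -0.58 (SE 0.18, adjusted p = 0.0518) with 1 µm PS. Psmd10, an ATPase chaperone also known as gankyrin, had 6.7 to 25.5 CPM in ISO (median 8.42), 4.1 to 10.1 CPM with 100 nm PS (median 8.26) and 3.39 to 8.31 CPM with 1 µm PS (median 7.37). All groups overlapped, with ISO replicate 2 as the high value. It had -0.88 (SE 0.28, adjusted p = 0.055) with 100 nm PS and was lower by -0.97 (SE 0.27, adjusted p = 0.0387) with 1 µm PS. Without ISO replicate 2 it had -0.51 and -0.65, with -0.58 for both sizes averaged, and none of the 3 passed. Psmg4, a partner in alpha ring assembly, passed with both sizes averaged (-1.04, SE 0.33, adjusted p = 0.0381). It had 35.3 CPM in ISO replicate 2 and 4.21 to 16.5 CPM in the rest of the group, and without that library the average was -0.41 and did not pass.

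The genes with a proteasome name alone did not pass. Psme3ip1 had 15.4 to 48 CPM in ISO (median 29.8), 19.8 to 35.2 CPM with 100 nm PS (median 21.9) and 20.8 to 32.3 CPM with 1 µm PS (median 22.4), with PS inside the ISO range and fold changes of -0.19 (SE 0.21) and -0.21 (SE 0.21). Psmc3ip had 0.351 to 2.96 CPM over all libraries and fold changes of 0.38 and 0.36.

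No difference between the particle sizes was detected for these genes. Between 1 µm and 100 nm PS, 0 of 50 members passed edgeR's test, as did 0% of all genes, and no member had an unadjusted p under 0.05. The members' median log2 fold change of 1 µm against 100 nm PS was -0.01. The widest difference, for Psma8 (1.01, SE 0.55), rested on levels under 1.3 CPM. For Psmc6 the difference was -0.001 (SE 0.15), for Psma3 0.06 (SE 0.18) and for Psme4 0.23 (SE 0.28). The threshold was met at one size and missed at the other by Psmb1, Psmd6, Psme4, Psmg1 and Psmd10, and the difference between sizes passed for none of them.

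Most of the core genes varied together between libraries. With group and batch removed, the median Pearson r between pairs of members over the 18 libraries was 0.889 in the beta ring, 0.748 in the alpha ring, 0.644 among ATPases, 0.496 among the other 19S subunits and 0.496 over all members. Libraries share depth, RNA composition and GC content across genes, and ISO replicate 2 carried part of it: without it the value over all members was 0.294. The activators did not share a pattern (0.004). Against the mean of the 20S and 19S genes, Psma7 followed most closely (r = 0.939), and Psme3 (-0.727), Psme4 (-0.322) and the chaperone Psmd5 (-0.311) ran against it. Of the 19S subunits themselves, Psmd11 (-0.196) and Psmd1 (-0.155) were also negative against that mean, at -0.374 and -0.346 without ISO replicate 2. Psmc6, the gene with the smallest p, had an r of -0.02 with that mean. Without ISO replicate 2 the values were 0.86 for Psma7, -0.477 for Psme3, -0.314 for Psme4, -0.352 for Psmd5 and 0.32 for Psmc6, and that of Psmd2, a base subunit of the cap, went from 0.261 to -0.226.

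The counts of lower members depended on single libraries. Leaving out 1 of the 18 libraries at a time gave 1 to 16 lower members with 100 nm PS, 2 to 16 with 1 µm PS and 11 to 24 with both sizes averaged. With 100 nm PS the count fell to 1 without 100 nm replicate 6, to 2 without 100 nm replicate 1 or 2, to 4 without 100 nm replicate 3, to 5 without ISO replicate 4 and to 6 without 100 nm replicate 4 or 5 or 1 µm replicate 4, and it rose to 16 and 15 without ISO replicate 1 or 3. With 1 µm PS it fell to 2 without 1 µm replicate 3, to 3 without 1 µm replicate 1 or ISO replicate 4 and to 4 without 1 µm replicate 6, and it rose to 16 and 14 without ISO replicate 1 or 3. With both sizes averaged it was 11 without ISO replicate 2 or 4 and 24 without ISO replicate 1. Without ISO replicates 1 and 2 together, 1, 5 and 6 members were lower, as were 400, 657 and 1001 of all genes. Counts over all genes also moved with single libraries. With 100 nm PS, 117 genes were lower without 100 nm replicate 6 and 1307 without ISO replicate 1, against 832 as reported. With 1 µm PS, 194 were lower without 1 µm replicate 3 and 1182 without ISO replicate 1, against 658. With both sizes averaged, 1852 were lower without ISO replicate 2 and 1925 without ISO replicate 1, against 1595.

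Psmc6 passed in all 18 of these fits at both sizes, and Psma3 did so with 1 µm PS. With 100 nm PS, Psma3 missed the threshold without 100 nm replicate 6 only (-0.92). Psmd14 and Psma6 missed it there without 100 nm replicate 1, 2 or 6 (-0.70 to -0.76 and -0.79 to -0.89). Psmd14 missed it with 1 µm PS without 1 µm replicate 3 (-0.75), and Psma6 without ISO replicate 4 or 1 µm replicate 1 or 3 (-0.76 to -0.81). Psma1 missed it in 5 fits with 100 nm PS and in 4 with 1 µm PS, Psma2 in 13 and 7, Psmd10 in 13 with 1 µm PS, and Psme4, Psmg1, Psmd6 and Psmb1 in 6, 9, 11 and 14 with 100 nm PS. In none of these did a fold change of theirs change sign. With both sizes averaged, 9 of the 16 passed in all 18 fits: Psma1, Psma2, Psma3, Psma6, Psmb1, Psmc6, Psmd6, Psmd14 and Psmg1. The members' median was closest to 0 without ISO replicate 2, at -0.11 for each size.

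GC content moved with the results. Across genes, the Spearman correlation between GC content and a library's difference from the mean of its batch was -0.606 to 0.008 for ISO and 0.124 to 0.369 for PS libraries, with no overlap. Members lower with 100 nm PS had a median GC content of 44% and the others 50.8%, against 49.8% over all genes tested. With 1 µm PS it was 42.3% and 50.8%. Among all genes, those called lower had a similar median, 43.3% with 100 nm PS and 42.3% with 1 µm PS. The Spearman correlation of fold change with GC content was 0.271 and 0.197 among members and 0.453 and 0.513 over all genes tested. Of the 13 members below 46% GC, 6 were lower with 100 nm PS and 6 with 1 µm PS, and of the 37 tested above it, 4 and 1. With each library corrected for GC content, no member passed at either size, and 1 and 2 of all genes did. An unadjusted edgeR p under 0.05 was held by 32 and 29 members and by 3979 and 2988 of all 14623 genes. With both sizes averaged, 22 members were lower, as were 1667 of all genes, with 167 of all genes higher. The set differed from that without the correction. Psma1, Psma2 and Psma4 no longer passed, and Psma7, Psmb5, Psmb8, Psmb9, Psmb10, Psmc3, Psmd8, Psmd13 and Psme1 did. The members' median after that correction was -0.57 and -0.53, where the median of all genes tested moved to -0.16 and -0.10.

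**Figure D4:**
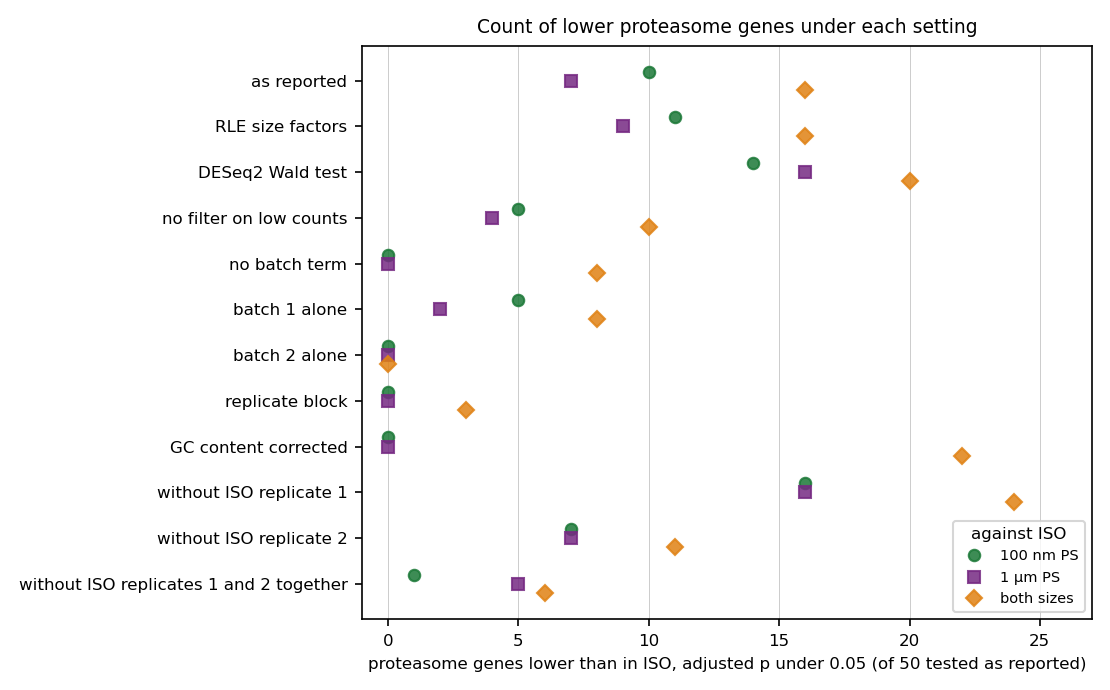
Number of members lower than in ISO at an adjusted p under 0.05 (x axis) under each processing setting (rows), for 100 nm PS, 1 µm PS and both sizes averaged. Over all genes tested, 0 passed at either size without the batch term or with the replicate block. Counts at 1 size fall to 0 without the batch term, with the replicate block, with the GC correction or in batch 2 alone, and both sizes averaged keep a count above 0 in every row but batch 2 alone.

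Beyond the members, 17 partners of the proteasome were tested. Of all genes tested, 5.69% were lower and 3.88% higher with 100 nm PS, and 4.5% and 2.89% with 1 µm PS. With both sizes averaged these shares were 10.9% and 6.8%. With 100 nm PS, 3 were lower and 0 higher: Uchl5 (-0.75, SE 0.22), a deubiquitinase of the 19S cap, Txnl1 (-0.71, SE 0.19), a thioredoxin bound to the cap, and Zfand5 (-0.80, SE 0.20), a proteasome activator known from muscle wasting. With 1 µm PS the same 3 were lower (-0.72, -0.69 and -0.71). At 1 size these calls depended on single libraries: without ISO replicate 2 Txnl1 had -0.45 and -0.46 and Uchl5 -0.62 and -0.61, and without ISO replicate 1 Zfand5 had -0.53 and -0.48, none of them past the threshold. With both sizes averaged, all 3 passed in each of the 18 fits that left out 1 library. With 1 µm PS, Midn, which brings substrates to the proteasome without ubiquitin, was higher (0.76, SE 0.18, edgeR adjusted p = 0.0244). Midn ranged from 24.4 to 72.4 CPM in ISO, from 49.6 to 94.1 CPM with 100 nm PS and from 55.6 to 157 CPM with 1 µm PS, with overlap. With both sizes averaged, the ubiquitin receptor Adrm1 was higher (0.47, SE 0.15) and the small cap subunit Sem1 lower (-1.10, SE 0.34). Adrm1 had 0.30 without ISO replicate 1 and 0.41 without ISO replicate 2 and passed in neither fit. Sem1 stood at 394 CPM in ISO replicate 2, while the other batch 1 libraries had 37 and 69.8 CPM in ISO and 77.3 to 122 CPM with PS. Without that library Sem1 had -0.44 and did not pass.

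Of 12 genes for ubiquitin and its supply, 0 passed at either size. With both sizes averaged, where 10.9% of all genes tested were lower, 3 of the 12 were. Among these were Rps27a (-1.48, SE 0.41), which encodes ubiquitin fused to a ribosomal protein, and the deglycosylase Ngly1 (-0.51, SE 0.15). Rps27a had 522 CPM in ISO replicate 2, with 49.1 to 412 CPM in the rest of ISO, and without that library it had -0.60 and did not pass. Ngly1 had -0.42 without ISO replicate 1 and did not pass. Of 10 muscle ubiquitin ligases, 0 passed in any comparison. In lists this short, 0 at either size is near the share of all genes called. Of 17 genes of interferon control and antigen processing, Igtp and Iigp1 were lower with 100 nm PS, Iigp1 with 1 µm PS, and 7 were lower and 1 higher (Tap2) with both sizes averaged. ISO replicate 2 held the highest ISO value of Igtp and Iigp1. Without it, Igtp had -0.015 with 100 nm PS and did not pass, Iigp1 had -0.87 and -0.86 and passed at both sizes, and 2 of the 17 genes were lower and 2 higher with both sizes averaged.

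Some markers of other cells of the heart also differed between the groups. Of all genes tested, 5.69% were lower and 3.88% higher with 100 nm PS, and 4.5% and 2.89% with 1 µm PS. In lists of 8 genes, 0 or 1 called is not far from these shares. Of 8 fibroblast markers, 3 were higher with 100 nm PS (Col1a1, Col1a2 and Gsn) and 0 with 1 µm PS, with a summed level of 2340 to 3710 CPM in ISO, 3380 to 6230 CPM with 100 nm PS and 3430 to 4910 CPM with 1 µm PS. Of 8 endothelial markers, 1 was higher with 100 nm PS (Esam), with a summed level of 834 to 1960, 1590 to 2660 and 1650 to 2550 CPM. Of 8 cardiac myocyte markers, 1 was lower at both sizes (Pln), with a summed level of 33600 to 88100, 37400 to 81100 and 44000 to 110000 CPM. In the 18 fits that left out 1 library, Gsn missed the threshold in 14, Esam in 13, Col1a1 in 5 and Col1a2 in 1 with 100 nm PS. Pln missed it in 1 with 100 nm PS and in 13 with 1 µm PS. ISO replicate 2 held the lowest fibroblast and endothelial sums, and without it ISO began at 2730 and 1300 CPM. None of these markers was at 0 in any library, and their part in the lower proteasome values was not tested.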

How the data were processed

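RNA of 18 mouse hearts was sequenced as poly(A) libraries by 2 providers, per the labels' protocols. The deposited table of batch 1 holds raw counts per gene, and that of batch 2 holds estimated counts, 19.6% of whose nonzero values are not whole; these were rounded. The submitters' processing notes list featureCounts 1.5.0-p3, HISAT2 2.0.5, fastp, DESeq2 and StringTie 1.3.3b, with the builds mm39 and GRCm39, but not their roles. Which of them made the batch 2 table, and how strand and multiply mapped reads were handled, is not given in the sources used. Batch 1 entries without a gene name (215 entries, 0.16% to 0.39% of a library's counts) were left out. The tables were joined by pairs of Entrez and Ensembl numbers from GENCODE M21 (22146 genes, all 51 members among them) or by a symbol found once in each table (13414). The joined genes hold 98.9% to 99.5% of counts in batch 1 and 85.2% to 95.8% in batch 2.

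The analysis used edgeR 4.0.16 (R 4.3.3) with TMM scaling, filterByExpr with a minimum count of 10 (14623 genes), and the robust quasi-likelihood test on group and batch over all 18 libraries (14 residual degrees of freedom), with Benjamini-Hochberg adjustment. The SE was derived as the absolute fold change over the root of F. Log2 CPM uses a prior count of 2. The scripts were tested on simulated data. GC content is that of the longest GENCODE M21 transcript, its correction a spline with 5 degrees of freedom per library. Alternatives were RLE size factors, no filter, no batch term, each batch alone, a replicate block, the GC correction, DESeq2 1.42.0, and libraries left out.

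Values by library were given for the 12 members with the smallest p among those that passed, the member with the smallest p of each role, and the catalytic subunits with their inducible counterparts; other members are named with fold changes, and of other lists those that passed, some of which are not reported here. The members and lists were chosen with earlier results of these data known. The depth limits low genes such as Psma8 and Psmc3ip. Copies with the suffix -ps (5 in either table) held 0 to 78 counts per library.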

Additional observations from a re-analysis of the deposited data

Results flagged for a closer look

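Among 81 groups of 6 values checked, 5 held a library far from the other 5 by Dixon's ratio of log2 values, and chance alone marks about 1 group in 20. The values of Psmb8, Psmb9 and Psmb10 in ISO replicate 2 were not marked on that scale, though far above the others in CPM. Psmc6 had 30 CPM in 100 nm PS replicate 6, the 1 library of that group from batch 2, against 66.6 to 77.1 CPM in the others. Psmb7, the trypsin-like catalytic subunit, had 83.4 CPM in ISO replicate 1. The mean log2 CPM of the activators and inhibitor was 6.66 in ISO replicate 2, above the other ISO libraries, and 5.18 in 100 nm PS replicate 6, below the others of its group. The mean log2 CPM of the assembly chaperones was 3.26 in 1 µm PS replicate 5, a batch 2 library, below the others of its group. The part of the batch in these values was not tested.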

How the results depend on the processing

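No member was higher than in ISO under any setting, and no member differed between the particle sizes under any (edgeR and DESeq2; no member had an unadjusted p under 0.05 in the fit as reported). The count of lower members with 100 nm PS (10 as reported) was 11 with RLE size factors, 14 with DESeq2, 5 without a filter, 0 without the batch term, 5 in batch 1 alone, 0 in batch 2 alone, 0 with the replicate block, 0 with the GC correction and 1 without ISO replicates 1 and 2. With 1 µm PS (7 as reported) it was, in that order, 9, 16, 4, 0, 2, 0, 0, 0 and 5, and with both sizes averaged (16 as reported) 16, 20, 10, 8, 8, 0, 3, 22 and 6. Beside the counts of 0 in edgeR, 20, 13 and 32 members with 100 nm PS and 18, 14 and 29 with 1 µm PS had an unadjusted p under 0.05. These fits were without the batch term, with the replicate block and with the GC correction. Over all 14623 genes tested, 2759, 2821 and 3979 did so with 100 nm PS and 2357, 2875 and 2988 with 1 µm PS. At the adjusted threshold, all genes gave 0 at either size without the batch term or with the replicate block, and 1 and 2 with the GC correction. Leaving out 1 library gave 1 to 16, 2 to 16 and 11 to 24. Over all genes tested, 832 were lower with 100 nm PS as reported. It was 943 with RLE size factors, 1500 with DESeq2, 413 without a filter and 680 in batch 1 alone. With 1 µm PS it was 658 as reported, and 770, 1369, 288 and 342. With both sizes averaged it was 1595 as reported, and 1762, 2137, 1285 and 1225. That average also gave 451 without the batch term, 249 with the replicate block and 1667 with the GC correction. The numbers of the replicates do not pair the samples: residuals of same-numbered libraries correlated from -0.437 to 0.229 over 18 pairs, with 3 over 0.1, so the replicate block is not read as a weaker effect.

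All medians of the members stayed negative against ISO. No member that had passed in a comparison turned sign there under any setting. Over all 50 members, at most 11 were listed as turned with 100 nm PS (batch 2 alone) and 11 with 1 µm PS (without ISO replicate 2). With both sizes averaged it was at most 10 (batch 2 alone). The counts for batch 2 alone include Psma8, which had no fold change in that fit and so did not turn. Among the members whose values are given by library, signs turned in these cases. Without ISO replicate 2, the values with 100 nm PS, 1 µm PS and both sizes averaged were 0.25, 0.06 and 0.16 for Psmb8, 0.24, 0.033 and 0.13 for Psmb9, 0.44, 0.34 and 0.39 for Psmb10, and 0.19, 0.14 and 0.17 for Psme3ip1, with 0.044 for Psmb6 at 100 nm. These were the highest values over the removal of single libraries, and the lowest, without ISO replicate 1, were -1.19, -1.24 and -1.22 for Psmb8, -1.20, -1.29 and -1.24 for Psmb9, -0.82, -0.81 and -0.81 for Psmb10, -0.32, -0.33 and -0.32 for Psme3ip1, and -0.49 for Psmb6 at 100 nm. Without ISO replicates 1 and 2, Psmb10 had 0.07 at 100 nm and 0.032 with both sizes averaged, and Psme3ip1 0.093, 0.043 and 0.068. In batch 2 alone, Psme3ip1 had 0.17 at 100 nm and 0.056 with both sizes averaged, and Psme4 0.002 at 1 µm. In batch 1 alone, Psmb5 had 0.017 at 1 µm and 0.003 with both sizes averaged. Where no value shows it, the cause was not tested. The 6 libraries per group, and 1 library of 100 nm PS in batch 2, limit what can be detected.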
